A study of Solanum lycopersicum with 95 samples.

Results

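Brassinosteroid synthesis and signalling were followed through 6 of the 34075 genes in the count table. They were chosen by gene ID, with earlier results of these data known: the synthesis genes CYP90B3 (Solyc02g085360), CPD (Solyc06g051750), DWARF (Solyc02g089160) and CYP85A3 (Solyc02g065750), the receptor gene BRI1 (Solyc04g051510) and the transcription factor gene BZR1 (Solyc04g079980). Expression was measured by RNA sequencing in tomato (Solanum lycopersicum cultivar Foundation), with 47 libraries from leaves and 48 from fruits. Under Leaf FR, far-red light (FR) was added over the leaves, stem and apex, on top of the red and white light that every plant received, and the fruits were shielded from it. Under No FR, no organ received added FR. Both groups were sampled at 0 h, when they had received the same light, and again once the treatment had run for 6, 12, 24, 48 or 96 h. Each group of 1 organ, treatment and time point held 4 plants, but only 3 for Leaf FR leaves at 12 h. Every sampling used new plants. The plants stood in experimental units of several plants each, and plants of different times shared units, whereas those of 1 time did not. A leaf sample was 1 leaflet of the leaf above the second truss, and a fruit sample was the first fruit of that truss at the immature green stage, so neither stem nor apex was measured. The samples of 0, 24, 48 and 96 h were taken at the same time of day, those of 6 h later in the day and those of 12 h just before the lights went off.

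Brassinosteroids are steroid hormones that promote cell expansion, and they are best known in shoots for the elongation of stems and petioles, including elongation under the low red to far-red ratio of canopy shade. Their synthesis runs through a chain of cytochrome P450 enzymes. CYP90B3 is the tomato enzyme that hydroxylates the sterol side chain at an early step, and CPD, known from Arabidopsis, acts in the middle of the chain. DWARF (CYP85A1) makes castasterone, an active brassinosteroid, and CYP85A3 carries castasterone on to brassinolide and is known from tomato fruit. The hormone is bound at the cell surface by the receptor kinase BRI1, called CURL3 in tomato after its mutant, and the signal ends at BZR1, a transcription factor that in Arabidopsis represses several of the synthesis genes.

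Library totals lay between 14769415 and 17957406 counts. Expression is given in CPM, which are counts relative to a library size scaled by the TMM method across all 95 libraries, and these values compare samples of 1 gene and not genes with each other. The scaling factors were 0.549 to 1.24 in leaves (median 0.798) and 1.17 to 1.299 in fruits (median 1.24), so that levels set across organs rest on this scaling. The labelled organs were checked by marker genes whose names come from general knowledge and not from the files. The sum of 3 RBCS genes for the Rubisco small subunit was 1137 to 1950 CPM in fruits and 13527 to 132067 CPM in leaves. The fruit markers TAG1 and TAGL1 were at 28.2 to 54.9 CPM and 49.1 to 87.4 CPM in fruits, against 0 to 1.01 CPM and 0 to 0.411 CPM in leaves.

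DWARF, the castasterone-forming step, was higher in leaves under Leaf FR than under No FR, and of the 5 genes detected in leaves it had the largest Log2FC at 12, 24, 48 and 96 h. Averaged over 6 to 96 h, its Log2FC was 1.98 ± 0.23 (SE), which is 3.93-fold, with an adjusted P-value of 8.52e-08 by edgeR's quasi-likelihood test. BRI1, the receptor, was higher as well, with an average Log2FC of 0.44 ± 0.08 (SE), or 1.36-fold (adjusted P-value 0.000168). These were 2 of the 5 members tested in leaves, both upregulated, against 4.51% of the 19346 genes tested, of which 523 were upregulated and 350 downregulated. The median Log2FC was 0.23 over the 5 members and −0.02 over all genes tested. BZR1 (0.23 ± 0.10 SE, adjusted P-value 0.213), CYP90B3 (0.18 ± 0.24 SE, adjusted P-value 0.781) and CPD (0.02 ± 0.11 SE, adjusted P-value 0.952) did not pass the threshold of 0.05. Because RNA was taken from whole leaflets and fruits, more RNA per cell and more cells of an expressing type cannot be told apart for any of these genes. The averages count every library as independent, because the labels do not name the experimental units. Whether plants of 1 unit were alike was not tested, so these SE and P-values may overstate the replication.

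At 0 h, before the treatment, DWARF was measured at 6.54, 3.15, 3.76 and 9.56 CPM in leaves under Leaf FR and at 8.07, 2.95, 4.42 and 4.97 CPM under No FR, with overlapping groups. At 6 h it reached 28.2, 52.3, 24.8 and 34.3 CPM under Leaf FR, against 12.6, 9.82, 22.1 and 19.7 CPM under No FR. At 12 h the 3 libraries under Leaf FR were at 66.9, 41.4 and 58.7 CPM and the 4 under No FR at 9.15, 7.002, 19.3 and 13.9 CPM. Every library under Leaf FR was above every library under No FR at both times. At 24 h DWARF was at 68.0, 26.5, 28.3 and 20.5 CPM under Leaf FR and at 9.47, 9.19, 2.82 and 8.40 CPM under No FR. At 48 h the values were 23.5, 46.9, 6.76 and 9.17 CPM under Leaf FR and 3.95, 3.10, 10.8 and 8.47 CPM under No FR. At 96 h they were 47.9, 15.1, 14.9 and 48.8 CPM under Leaf FR and 5.28, 6.36, 5.41 and 3.08 CPM under No FR. The groups were again apart at 24 and 96 h but overlapped at 48 h, where 2 libraries under Leaf FR lay within the No FR range. Replicate 2 under Leaf FR at 48 h, at 46.9 CPM, had the lowest scaling factor (0.549) and the highest RBCS sum (132067 CPM) of all leaf libraries, and without it the group mean was 13.1 CPM, against 21.6 CPM with it. High DWARF values also came with high RBCS sums at 96 h under Leaf FR. The sums were 48652 and 49301 CPM in the libraries with 47.9 and 48.8 CPM of DWARF. They were 17538 and 29557 CPM in the other 2. Both measures of a library are divided by its scaling factor, so a low factor raises both. These factors were 0.719, 0.713, 0.877 and 0.855 in the same order. At 24 h a sum of 93921 CPM stood beside 68.0 CPM of DWARF and one of 88383 CPM beside 28.3 CPM, both under Leaf FR. A sum of 94412 CPM stood beside 9.19 CPM under No FR at that time. At 0 h the highest sum under Leaf FR, 101879 CPM, stood beside 3.76 CPM of DWARF. At 6 and 12 h the highest sums under Leaf FR, 50780 and 61285 CPM, stood beside 52.3 and 58.7 CPM. The part of these differences between libraries was not tested. Groups that did not overlap, with Leaf FR on top, made up 3.24%, 1.57%, 2.12% and 4.09% of genes at 6, 12, 24 and 96 h.

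**Figure D1:**
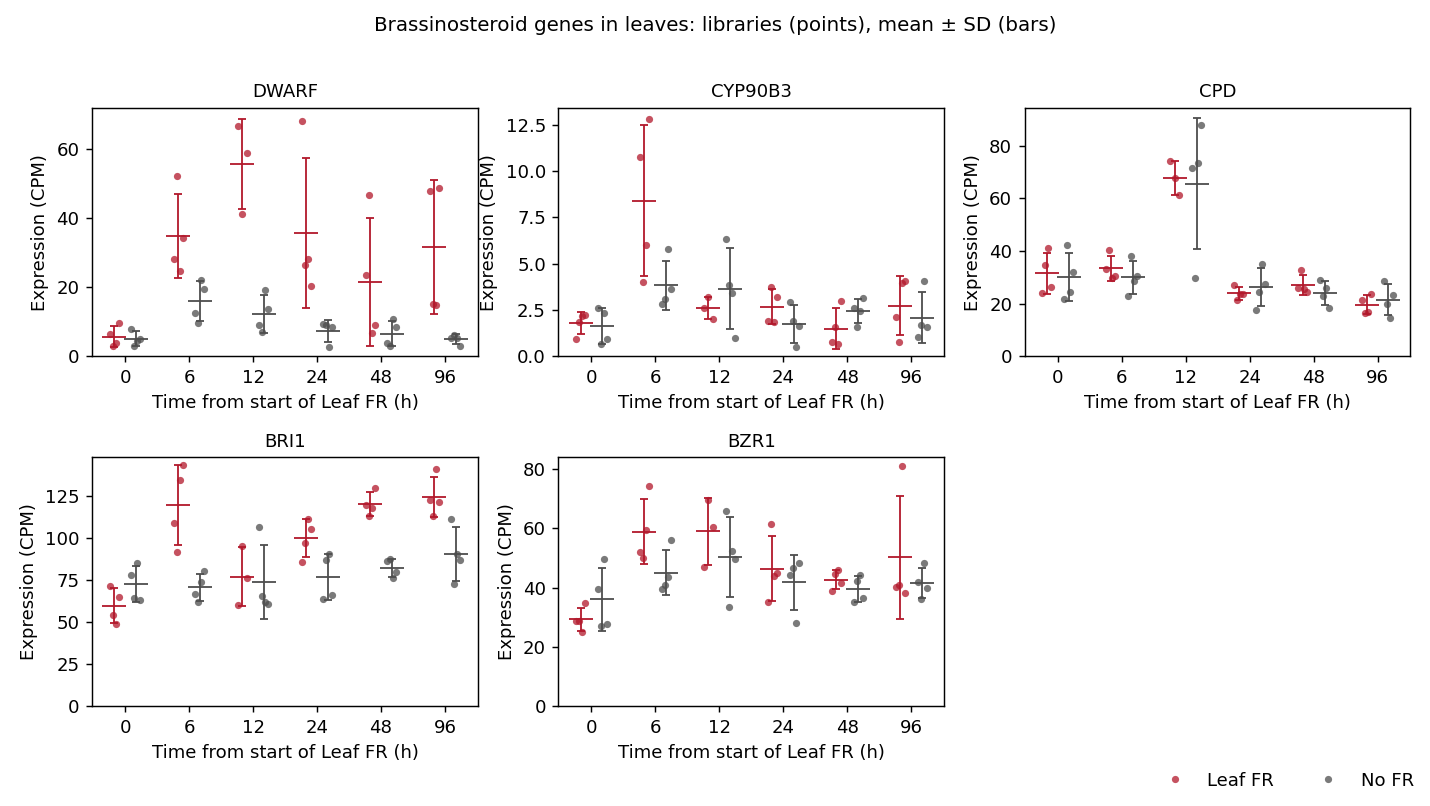
Expression in CPM (vertical axis, linear, from 0) of the 5 brassinosteroid genes detected in leaves, against time from the start of Leaf FR (horizontal axis, h). Points are libraries, horizontal marks with bars are group means ± SD (n = 4, and n = 3 under Leaf FR at 12 h), with Leaf FR in red to the left and No FR in grey. DWARF under Leaf FR lies above No FR at 6, 12, 24 and 96 h without overlap, and CPD has its highest mean at 12 h under both treatments.

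Taken by time point, the Log2FC of DWARF in leaves was 0.16 ± 0.41 (SE) before the treatment, and at 6, 12, 24, 48 and 96 h it was 1.14 ± 0.31, 2.17 ± 0.35, 2.24 ± 0.47, 1.69 ± 0.65 and 2.65 ± 0.47. Without replicate 2 under Leaf FR the value at 48 h was 0.96 ± 0.55 (SE). None of these passed the threshold in edgeR, where the adjusted P-values were 0.999, 0.226, 0.647, 0.176, 0.578 and 0.0785 in the same order. Of all genes, edgeR called 0% at 0 h (552 of 17425 at an unadjusted P-value under 0.05, and 0.121% called by DESeq2), and 0.365%, 0.00548%, 0.188%, 0.0795% and 0.263% at the 5 later times. At 5 of the 6 times the unadjusted P-value was under 0.05, from 0.00031 at 12 h to 0.028 at 48 h. Such a value was not particular to DWARF. After 6 h of treatment 1611 of 18085 tested genes had one, and after 12 h 230 of 18235 did. Their number was 1208 of 17589 by 24 h, then 1325 of 17607 by 48 h, and it reached 1999 of 17520 by 96 h. The DESeq2 Wald test on the same counts called DWARF at 6, 12, 24 and 96 h, with adjusted P-values of 0.0435, 4.24e-05, 0.000497 and 3.30e-06, where it called 2.82%, 0.115%, 1.51% and 2.51% of all genes. The call therefore depended on the tool at single time points, whereas the average over 6 to 96 h passed in both tools and in all 47 fits that each left out 1 library, with a Log2FC of 1.83 to 2.04, and was 1.93 with scaling by library totals alone. With one fit over all time points, DWARF also passed in edgeR at 24 h (adjusted P-value 0.0280, 0.455% of all genes) and 96 h (0.00511, 0.656%).

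BRI1 followed another course in leaves. It stood at 71.5, 54.4, 48.7 and 65.0 CPM under Leaf FR and at 78.3, 64.6, 85.2 and 63.2 CPM under No FR at 0 h. After 6 h it reached 108.9, 92.0, 134.8 and 143.4 CPM under Leaf FR, against 66.8, 62.0, 73.8 and 80.6 CPM under No FR, so that the groups no longer overlapped. At 12 h the groups overlapped, with 60.3, 95.1 and 76.1 CPM under Leaf FR and 106.7, 65.4, 62.1 and 61.1 CPM under No FR. The value of 106.7 CPM stood apart from the other 3 of its group. Its library, replicate 1 under No FR, had the highest scaling factor (1.24) and the lowest RBCS sum (13527 CPM) of all leaf libraries. Without it the group mean was 62.8 CPM, against 73.8 CPM with it, and the Log2FC at 12 h was 0.30 ± 0.20 (SE). The part of this library in the course of BRI1 was not tested.

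At 24 h BRI1 was at 85.6, 97.1, 111.6 and 105.7 CPM under Leaf FR and at 63.9, 86.9, 90.6 and 66.4 CPM under No FR. At 48 h all 4 libraries under Leaf FR, at 119.7, 113.1, 118.1 and 130.2 CPM, were above those under No FR, at 86.2, 87.5, 76.1 and 79.9 CPM. At 96 h the libraries under Leaf FR were at 122.5, 113.1, 141.4 and 121.8 CPM and those under No FR at 111.7, 73.0, 90.8 and 86.8 CPM, again without overlap. Separation with Leaf FR on top was found for 3.06% of genes at 48 h. The Log2FC was −0.30 ± 0.16 (SE) before the treatment, and over the 5 later times it was 0.79 ± 0.17, 0.06 ± 0.27, 0.36 ± 0.16, 0.53 ± 0.12 and 0.47 ± 0.15. In the edgeR fits per time point none passed, with the lowest adjusted P-value, 0.129, at 6 h. At that time BRI1 did pass in edgeR with one fit over all time points (adjusted P-value 0.0125, 0.827% of all genes) and with the replicate number as a block (0.0441, 1.1%). DESeq2 called BRI1 at 6 h (adjusted P-value 0.00488) and at 48 h (2.93e-05, against 1.44% of all genes).

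Because the Log2FC of BRI1 was below 0 before the treatment, its light response was set against that at 0 h. At 6 h it was higher by a Log2FC of 1.08 ± 0.24 (SE, adjusted P-value 0.0426, edgeR), 1 of 5 members and 0.16% of all genes. At 12, 24, 48 and 96 h the change from 0 h was 0.36, 0.69, 0.83 and 0.76 without passing, where 0.0155%, 0.0672%, 0.062% and 0.0724% of all genes did. The call at 6 h was kept in 28 of 47 fits that each left out 1 library, with the adjusted P-value reaching 0.184 without replicate 3 of No FR at 0 h. It was also lost with no filter on low counts (0.0602), with the replicate block (0.0662) and with library totals alone (0.193). Among the 16 libraries of 0 and 6 h it was kept only without replicate 2 or 4 of No FR or replicate 1 of Leaf FR at 0 h, or replicate 4 of No FR or replicate 2 of Leaf FR at 6 h. Of the other libraries, it was lost, with an adjusted P-value of at most 0.0545, without replicate 3 of Leaf FR at 12 or 24 h, replicate 1 or 3 at 48 h or replicate 4 at 96 h, or without replicate 2 of No FR at 48 h or replicate 3 or 4 at 96 h. DWARF changed from 0 h by 0.98 ± 0.72 (SE) at 6 h to 2.48 ± 0.74 at 96 h, where the adjusted P-value was 0.289.

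**Figure D2:**
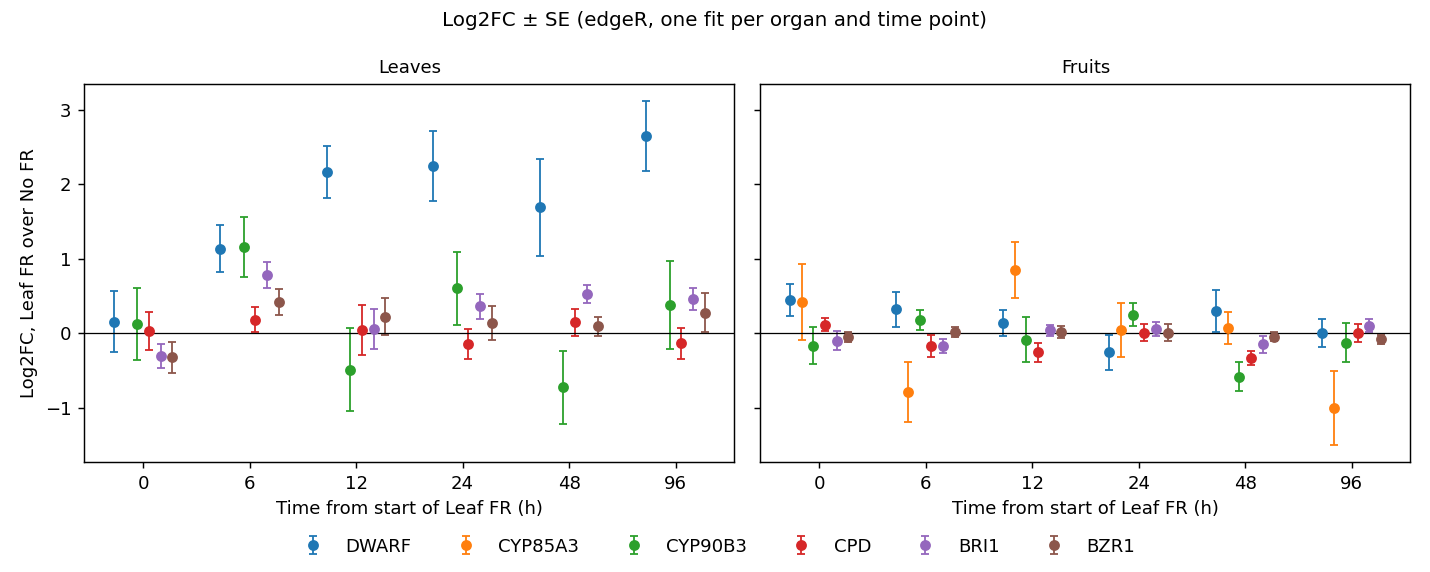
Log2FC of Leaf FR over No FR (vertical axis) against time from the start of Leaf FR (horizontal axis, h), in leaves (left) and fruits (right), for each gene of the set. Points are edgeR estimates from one fit per organ and time point and bars are ± SE. CYP85A3 has no leaf points because it had no counts there, and DWARF lies above 1 in leaves from 6 to 96 h and between −0.26 and 0.45 in fruits.

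The early synthesis gene CYP90B3 was at 10.8, 4.02, 6.01 and 12.8 CPM in leaves under Leaf FR at 6 h, against 2.85, 3.09, 5.78 and 3.65 CPM under No FR. The ranges overlapped, and the Log2FC of 1.15 ± 0.40 (SE) had an adjusted P-value of 0.372 (unadjusted 0.019). At the later times its sign varied, from 0.60 ± 0.49 (SE) at 24 h to −0.72 ± 0.49 at 48 h. BZR1, the transcription factor, was at 51.9, 50.0, 59.4 and 74.4 CPM under Leaf FR at 6 h, against 39.5, 40.8, 43.6 and 56.2 CPM under No FR (Log2FC 0.42 ± 0.17 SE, adjusted P-value 0.504). At 96 h replicate 3 under Leaf FR was at 81.2 CPM, with the other 3 at 38.3 to 41.0 CPM. CPD, the middle step, had a Log2FC between −0.14 and 0.18 at every time point in leaves, the lowest at 24 h and the highest at 6 h.

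In fruits no member passed the threshold in any of the 6 comparisons of Leaf FR with No FR in edgeR or DESeq2. Unadjusted P-values under 0.05 (edgeR) were found for 1 member at 12 h and 2 at 48 h, and for none at the other times. They were found for 505 of 18331 genes at 12 h and for 1391 of 18442 at 48 h. At 0, 6 and 24 h they were found for 247 of 18185, 619 of 18310 and 888 of 18317 genes. At 96 h 3432 of 18438 genes had one. Of all genes, edgeR called 0% at each time up to 48 h (247 to 1391 at an unadjusted P-value under 0.05, and 0% to 0.0976% called by DESeq2). At 96 h edgeR called 0.0434% of all genes and DESeq2 5.81%. Likewise 0 of 6 passed in the average over 6 to 96 h, with 1 of 6 at an unadjusted P-value under 0.05 (edgeR) and 0 called by DESeq2. The share of all genes called in that average was 0% in edgeR, with 2208 of 19238 at an unadjusted P-value under 0.05, and 0.489% in DESeq2. That member was CPD, with a Log2FC of −0.14 ± 0.06 (SE, unadjusted P-value 0.015, adjusted 0.312). Over 6 to 96 h, DWARF ranged from 1.18 to 4.03 CPM (median 1.81) in fruits of Leaf FR plants and from 1.10 to 2.56 CPM (median 1.75) in those of No FR plants. BRI1 ranged from 40.6 to 65.1 CPM (median 54.7) under Leaf FR and from 44.7 to 69.4 CPM (median 54.4) under No FR. The ranges of both genes overlapped between the treatments, for BRI1 over most of their length. That of DWARF reached higher under Leaf FR, with its highest library, at 4.03 CPM, at 48 h.

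The synthesis genes CPD and CYP90B3 were separated in fruits at 48 h, with Leaf FR on the lower side. CPD was at 43.6, 49.2, 36.3 and 37.6 CPM under Leaf FR, against 53.4, 52.0, 51.3 and 51.2 CPM under No FR (Log2FC −0.33 ± 0.09 SE). CYP90B3 was at 10.2, 13.07, 6.32 and 11.4 CPM under Leaf FR, against 13.15, 15.2, 13.9 and 18.7 CPM under No FR (Log2FC −0.58 ± 0.20 SE). The adjusted P-value was 0.651 for both, and 2.06% of all genes were separated in this direction at that time. At 96 h CPD was at 42.7, 36.2, 47.7 and 46.3 CPM under Leaf FR and 37.1, 50.4, 45.3 and 37.5 CPM under No FR, overlapping again. BZR1 was the steadiest gene of the set in fruits, at 56.2 to 79.6 CPM over all 48 libraries, with a median coefficient of variation within groups of 4.98%.

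CYP85A3, the brassinolide-forming step, had counts only in fruits. All 48 fruit libraries held it, with 3 to 113 counts and 2307 in sum, and all 47 leaf libraries held 0 counts, although they summed to 765145846 counts and DWARF reached 1042 counts in a leaf library. Against a floor of 3 counts over all leaf libraries, its mean of 2.30 CPM in fruits was 479-fold higher. This fold depends on the floor chosen. In fruits it varied widely between replicates, with a median coefficient of variation within groups of 42.7%. At 12 h it was at 2.25, 3.26, 5.14 and 3.94 CPM under Leaf FR and at 1.10, 2.71, 3.21 and 1.08 CPM under No FR (Log2FC 0.85 ± 0.38 SE, unadjusted P-value 0.048). At 96 h it was at 1.11, 1.98, 0.730 and 0.159 CPM under Leaf FR and at 1.88, 1.65, 1.73 and 2.78 CPM under No FR with means of 0.996 ± 0.766 and 2.01 ± 0.524 CPM (SD, n = 4 each, edgeR adjusted P-value 0.312). Both pairs of groups overlapped.

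**Figure D3:**
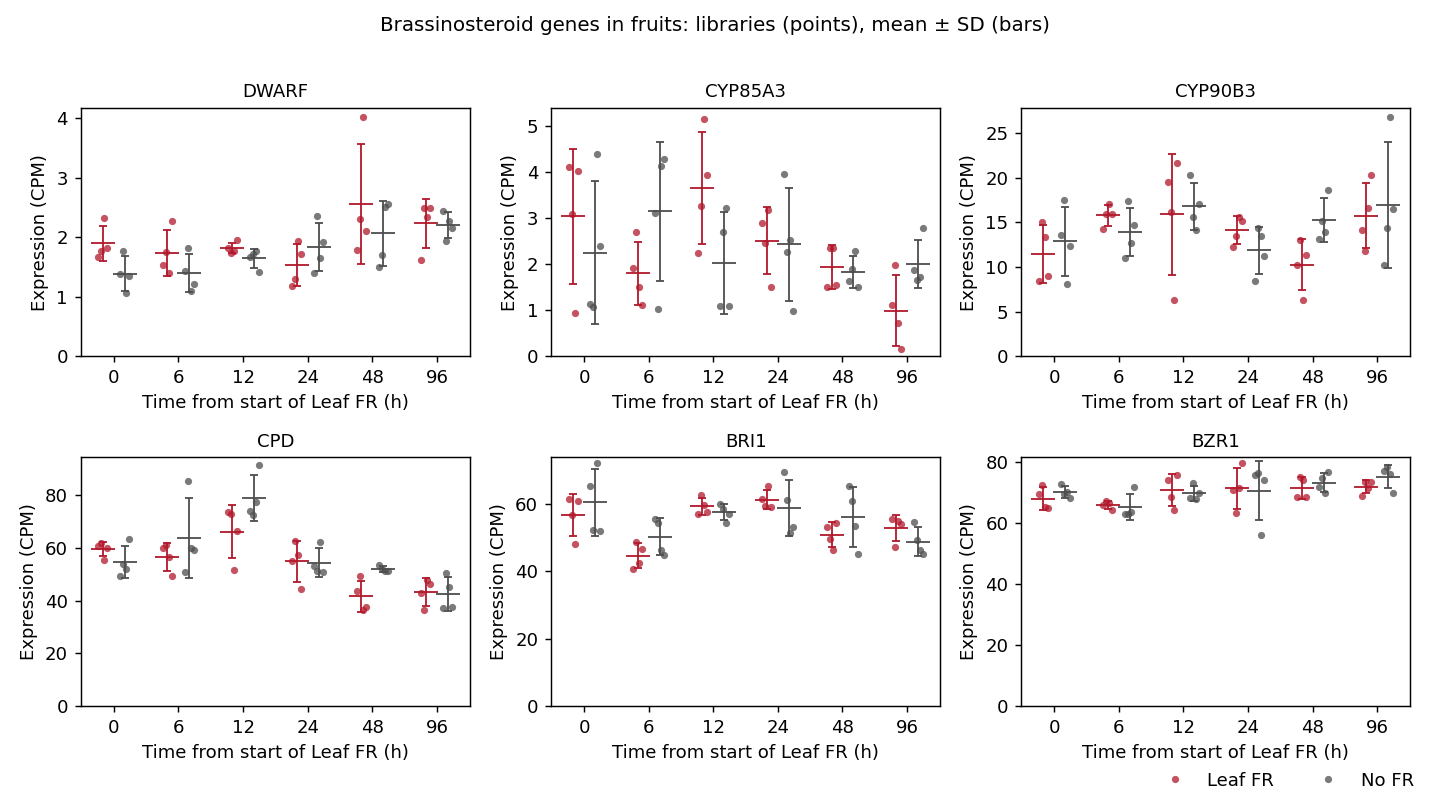
Expression in CPM (vertical axis, linear, from 0) of all 6 brassinosteroid genes in fruits, against time from the start of Leaf FR (horizontal axis, h). Points are libraries and horizontal marks with bars are group means ± SD (n = 4), with Leaf FR in red to the left and No FR in grey. CPD and CYP90B3 are separated at 48 h with Leaf FR below, and the treatments overlap for BRI1 at every time.

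The light response of fruits was tested against that of leaves as an interaction at each time point. By the design in the paper, both organs were sampled on 4 plants per treatment and time, so leaf and fruit libraries shared plants. Which libraries belong together cannot be read from the labels. The main fits therefore treated all libraries as separate, and their P-values leave the shared plants out of account. For DWARF the response in fruits was lower than in leaves by a Log2FC of 2.63 at 96 h (−2.63 ± 0.53 SE, adjusted P-value 0.0449, 0.511% of all genes). At 12 h (−2.04 ± 0.38 SE, adjusted P-value 0.164) and 24 h (−2.51 ± 0.56 SE, adjusted P-value 0.121) the difference had a similar size and did not pass. For BRI1 it was −0.96 ± 0.20 (SE) at 6 h (adjusted P-value 0.0468, 0.485% of all genes). No member passed at 0 h, where 0.0102% of all genes did, nor at 12, 24 or 48 h, where 0.0303%, 0.153% and 0.131% did. The call of DWARF at 96 h was kept only without replicate 2, 3 or 4 of the leaves under Leaf FR and lost without any other of the 16 libraries (adjusted P-value up to 0.109). The call of BRI1 was kept only without replicate 4 of the leaves under No FR or replicate 1 or 2 of those under Leaf FR, and lost without any other of the 16 (up to 0.120). Both calls were lost with the replicate block, with adjusted P-values of 0.125 for DWARF and 0.0795 for BRI1. They were also lost with a block of the number within each treatment, as if leaf and fruit of 1 number shared a plant (0.113 and 0.183). The call of DWARF was lost with the size factors of DESeq2 (0.0508), and that of BRI1 with no filter (0.0542) and with library totals alone (0.0707).

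Levels under No FR differed between fruits and leaves for most of the set, as they did for 74%, 72.4%, 67.3%, 75%, 75% and 76.1% of all genes over the 6 times, so a call alone says little about these genes. CYP90B3 was higher in fruits at every time point, by a Log2FC of 1.94 ± 0.32 (SE) at 6 h to 3.07 ± 0.47 at 96 h. DWARF was lower in fruits at every time point, with Log2FC between −3.43 ± 0.31 (SE) at 6 h and −1.11 ± 0.38 at 96 h. The transcripts of CYP90B3 and DWARF thus had opposite orders between the organs. CPD was higher in fruits by 0.89 to 1.18 except at 12 h (0.30 ± 0.24 SE, adjusted P-value 0.287), and BZR1 was higher by 0.50 to 1.01. BRI1 was lower in fruits at 96 h, with a Log2FC of −0.82 ± 0.12 (SE, adjusted P-value 2.01e-05), and the difference of −0.23 ± 0.15 at 0 h did not pass.

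Scaling by library totals alone moved the median Log2FC of all genes between fruits and leaves by 0.27 to 0.78. Under it CYP90B3, CPD and BZR1 stayed higher and DWARF stayed lower in fruits, with the calls of DWARF lost at 48 h (−0.91) and 96 h (−0.51). BRI1 turned round at 0, 24 and 48 h, to Log2FC of 0.51, 0.44 and 0.17, of which those at 0 h (adjusted P-value 0.00935) and 24 h (0.0232) passed. It stayed negative at 6, 12 and 96 h, and the calls at 6 h (−0.14, adjusted P-value 0.460) and 96 h (−0.24, 0.139) were lost, so the order of the organs for BRI1 depended on the scaling.

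**Figure D4:**
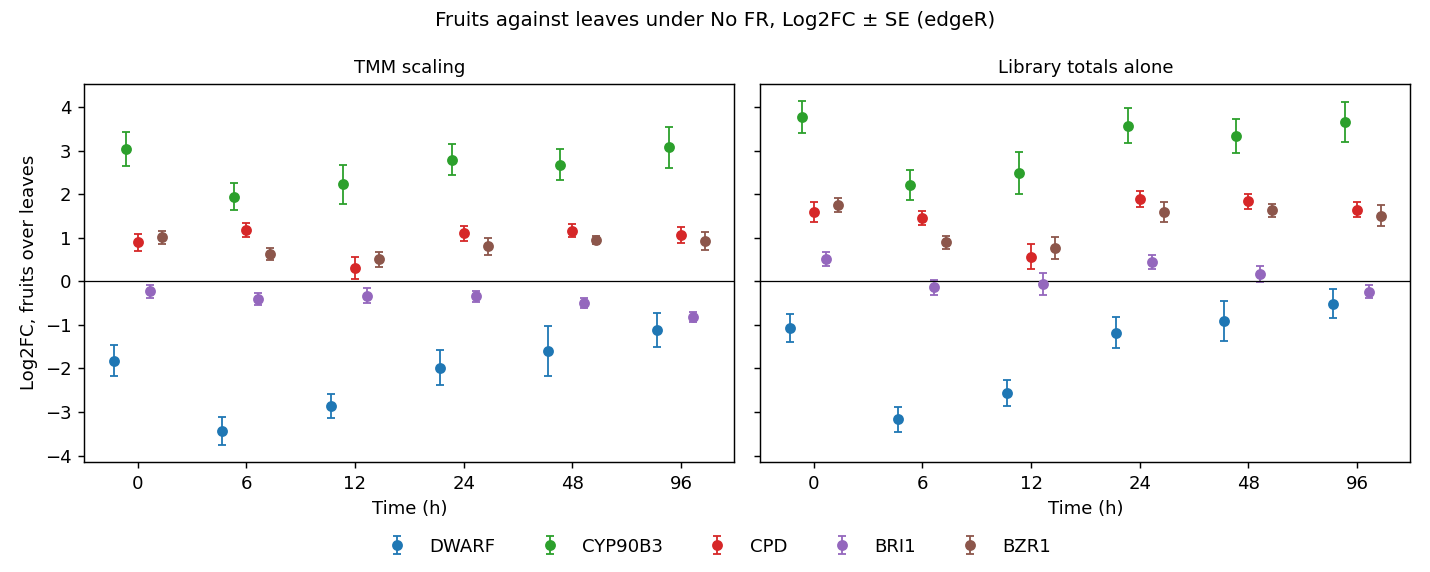
Log2FC of fruits over leaves under No FR (vertical axis) against sampling time (horizontal axis, h), for the 5 genes detected in both organs, with TMM scaling (left) and with library totals alone (right). Points are edgeR estimates and bars are ± SE. DWARF lies below 0 and CYP90B3 above 1.9 in both panels, whereas BRI1 lies below 0 at every time on the left and above 0 at 0, 24 and 48 h on the right.

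Each later time was also tested against 0 h within a treatment. Under Leaf FR all 5 members detected in leaves changed over the 6 times in the joint test, against 55% of all genes. Under No FR 2 of 5 changed, DWARF (adjusted P-value 0.0207) and CPD (2.85e-06), against 39.1%. DWARF under Leaf FR rose over 0 h at each of the 5 later times, with Log2FC of 2.63 ± 0.53 (SE), 3.28 ± 0.56, 2.65 ± 0.53, 1.88 ± 0.52 and 2.47 ± 0.53. The share of all genes called at these times was 37.6%, 17.7%, 1.52%, 4.7% and 14.5%. The call at 48 h was lost without replicate 2 or 3 at 0 h or replicate 1 or 2 at 48 h (adjusted P-value up to 0.116). Under No FR, DWARF rose by 1.65 ± 0.52 (SE) at 6 h (adjusted P-value 0.0145, 27.3% of all genes), which was lost without replicate 2 at 0 h or replicate 3 at 6 h (up to 0.0529), and it passed at no other time (11.7% of all genes at 12 h, 0.093% at 24 h, and 0% at 48 and 96 h). With library totals alone DWARF under No FR also passed at 12 h, with a Log2FC of 1.79 (adjusted P-value 0.00462, 31.1% of all genes), against 1.26 with TMM.

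BRI1 under Leaf FR rose at 6, 24, 48 and 96 h, with Log2FC of 1.03 ± 0.17 (SE), 0.76 ± 0.17, 1.00 ± 0.17 and 1.08 ± 0.17, and at 12 h its Log2FC of 0.37 ± 0.18 did not pass. The call at 24 h was lost without replicate 2 or 3 at 0 h or replicate 3 at 24 h (adjusted P-value up to 0.0740). With library totals alone BRI1 passed at 12 h (Log2FC 0.94, adjusted P-value 0.00443, 38.7% of all genes) and no longer at 24 h (0.77, adjusted P-value 0.130, 0.92% of all genes), so both depended on the scaling. Under No FR, BRI1 did not pass at any time, with Log2FC between −0.04 and 0.32. BZR1 under Leaf FR rose at 6, 12 and 96 h, with Log2FC of 1.04 ± 0.22 (SE), 1.02 ± 0.24 and 0.81 ± 0.22, and the call at 96 h was lost without replicate 3 at 0 h or replicate 3 at 96 h (up to 0.159). CYP90B3 under Leaf FR rose by 2.26 ± 0.55 (SE) at 6 h (adjusted P-value 0.00138). Whether these time courses differed between the treatments was tested only as the change of the light response from 0 h given above.

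CPD in leaves had its highest mean at 12 h under both treatments. At 12 h it was at 74.4, 67.7 and 61.3 CPM under Leaf FR, against 24.2, 34.6, 41.0 and 26.4 CPM at 0 h (Log2FC 1.11 ± 0.25 SE, adjusted P-value 0.00161). Under No FR it was at 71.7, 29.8, 73.3 and 87.8 CPM at 12 h, against 21.9, 42.5, 24.4 and 32.1 CPM at 0 h (1.10 ± 0.24 SE, adjusted P-value 0.00189, 11.7% of all genes). Replicate 2 under No FR was the only library of the 7 at 12 h that did not exceed the highest 0 h library. The scaling factor also moved with the time of day in leaves, with a median factor at 6 h of 1.07 under Leaf FR, against 0.662 at 0 h, and of 0.976 at 6 h under No FR, against 0.718 at 0 h. Scaling by library totals alone moved the median of all genes at 6 and 12 h over 0 h by 0.44 to 0.59, and the Log2FC given here are relative to that shift. Without the TMM factors CPD kept its calls at 12 h, with Log2FC of 1.68 in Leaf FR leaves and 1.60 in No FR leaves, and it passed at 6 h under Leaf FR as well (0.70, adjusted P-value 0.0261, 58.1% of all genes). Under No FR, BZR1 then passed at 6 h (0.78) and 12 h (1.02), and CYP90B3 at 6 h (1.73) and 12 h (1.74), where 38.3% and 31.1% of all genes did.

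In fruits the joint test over the 6 times called CYP85A3, CPD and BRI1 under Leaf FR, 3 of 6 members against 37% of all genes, and DWARF and CPD under No FR, 2 of 6 against 33.9%. With no filter the call of DWARF was lost (adjusted P-value 0.0671). CPD rose at 12 h under No FR, at 74.1, 72.4, 77.3 and 91.5 CPM, against 49.5, 53.8, 52.2 and 63.5 CPM at 0 h, without overlap (Log2FC 0.53 ± 0.13 SE, adjusted P-value 0.0054, 7.39% of all genes). In Leaf FR fruits its Log2FC at 12 h was 0.15 ± 0.13 (SE) without passing (10.3% of all genes), and it fell by 0.53 at 48 h (4.34% of all genes) and by 0.47 at 96 h (18.5%). The call at 48 h was lost without replicate 2 or 4 at 0 h or replicate 3 or 4 at 48 h (adjusted P-value up to 0.0968). The change of the light response of CPD from 0 to 12 h was −0.38 ± 0.18 (SE), with an unadjusted P-value of 0.043 and an adjusted one of 1.00.

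CYP85A3 in Leaf FR fruits fell by 1.59 at 96 h (SE 0.50, adjusted P-value 0.022), which was lost without replicate 1 or 4 at 0 h or replicate 3 or 4 at 96 h (up to 0.0986). In No FR fruits at 96 h, DWARF was higher by 0.66 ± 0.22 (SE), CPD lower (−0.37 ± 0.13) and BRI1 lower (−0.31 ± 0.11) than at 0 h, 3 of 6 members against 19.6% of all genes. These 3 calls had adjusted P-values of 0.0303, 0.0404 and 0.0312, which reached 0.123, 0.188 and 0.186 with 1 library left out. DWARF was lost without replicate 1, 3 or 4 at either time, CPD without replicate 2, 3 or 4 at 0 h, replicate 1, 3 or 4 at 96 h or, under Leaf FR, replicate 2 at 0 h or 4 at 96 h, and BRI1 without replicate 1 or 3 at 0 h or 3 or 4 at 96 h. That of CPD was also lost with library totals alone (0.0517). At 6, 24 and 48 h no member passed in No FR fruits, where 8.44%, 0.551% and 0.0052% of all genes did. BRI1 in Leaf FR fruits fell by 0.33 at 6 h (adjusted P-value 0.0397, 8% of all genes), lost without replicate 1, 2 or 4 at 0 h or replicate 1, 3 or 4 at 6 h (up to 0.143), with no filter (0.0538) and with library totals alone (0.0523).

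Within leaves, the log2 CPM of BZR1 correlated with that of CYP90B3 (Pearson's r = 0.57), DWARF (0.51) and BRI1 (0.50) over the 47 libraries. Within fruits no pair of members had an r above 0.33 or below −0.465 over 48 libraries. These libraries share times of day and treatments, so the values describe them only. By organ-centred log2 CPM over all 95 libraries and among 16002 genes, the gene most like DWARF was Solyc07g062710 (r = 0.79, from 0.84 in leaves and 0.03 in fruits). The closest to BRI1 was Solyc08g060810 (0.78, from 0.82 in leaves and 0.58 in fruits) and to CPD Solyc03g115770 (0.81, from 0.89 and 0.50). For BZR1 it was Solyc02g093850 (0.75, from 0.83 in leaves and −0.04 in fruits) and for CYP90B3 Solyc02g067580 (0.70, from 0.79 and 0.23). For CYP85A3 it was Solyc08g008000 (0.62, with 0.71 in fruits), and the leaf part of that value rests on libraries without counts of CYP85A3.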

How the data were processed

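RNA was sequenced from leaves and fruits, and libraries were grouped by the organ, treatment, time and replicate in the sample labels. Read cleaning by the authors used SOAPnuke, alignment to ITAG4.0 used Bowtie2, and gene-level estimates came from RSEM. The expected counts deposited by the authors are whole numbers without normalization. RSEM divides reads that match several genes, so counts of closely related P450 genes such as DWARF and CYP85A3 are estimates. The authors' table of normalized counts was not used here.

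Counts were tested in R 4.3.3 with the quasi-likelihood test of edgeR 4.0.16 (limma 3.58.1) after TMM normalization, over genes that reached 10 counts in 3 or more compared libraries, with Benjamini-Hochberg adjustment over all genes tested and a threshold of 0.05. Light was tested per organ and time point, and the averages over 6 to 96 h, the time courses and the changes from 0 h in one fit per organ. Organs were compared in one fit per time point. The alternatives were DESeq2 1.42.0 (Wald test), its size factors, no filter, a replicate block, one fit over all time points and each library left out. Scaling by library totals alone and, between organs, a block of the replicate number within treatments were added after seeing the data. Simulated data were used only for light in leaves at 6 h and over 6 to 96 h, and in fruits at 96 h. The changes from 0 h and the comparisons of organs were not simulated, and the outcome is not given here.

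The text names the 6 members and, for each, the gene most like it among the 3 highest correlations. Members and lists were chosen with earlier results of these data known. The RefSeq table at hand (assembly SLM_r2.1) held 0 IDs of the count table. The list of other pathway genes could therefore not be matched and is not analysed here. By symbol or synonym 5 of the 6 members matched, and CPD did not. A match by name does not link a name to a gene ID, so the names were not checked against an annotation. No sequences are shown. In none of the 12 comparisons of the treatments were all same-numbered libraries correlated above 0.1 in their deviations from the group means, nor were they in any of the 12 comparisons of fruits with leaves, so the numbers were not taken to pair the samples. Fruits and leaves of the same number were on average more alike than those of other numbers in 11 of the 12. Fits with a block are therefore given beside the calls between organs.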

Additional observations from a re-analysis of the deposited data

Results flagged for a closer look

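In the 127 groups of 4 libraries in which a member had counts, the gap between the highest or lowest library and the other 3 was unusually wide in 6, where chance flags about 1 in 20 groups. In leaves these were DWARF under Leaf FR at 24 h (68.0 CPM in replicate 1, the others at 20.5 to 28.3), DWARF under No FR at 24 h (2.82 CPM in replicate 3, the others at 8.40 to 9.47), BRI1 under No FR at 12 h (106.7 CPM in replicate 1, the others at 61.1 to 65.4) and BZR1 under Leaf FR at 96 h (81.2 CPM in replicate 3, the others at 38.3 to 41.0). In fruits they were BZR1 under No FR at 6 h (71.8 CPM in replicate 4, the others at 62.8 to 63.5) and at 24 h (56.2 CPM in replicate 3, the others at 74.2 to 76.4).

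In 3 tests the difference of Leaf FR from No FR itself passed as changed between times or organs, each at an adjusted P-value just under 0.05 (edgeR). For BRI1 in leaves it was higher at 6 h than at 0 h, before the treatment, when BRI1 was lower under Leaf FR (1.08 on the Log2FC scale, adjusted P-value 0.0426, 0.16% of all genes). At 6 h it was lower for BRI1 in fruits than in leaves (−0.96, adjusted P-value 0.0468, 0.485% of all genes). For DWARF it was lower in fruits than in leaves at 96 h (−2.63, adjusted P-value 0.0449, 0.511% of all genes). All 3 calls were lost with the replicate block, with adjusted P-values of 0.0662, 0.0795 and 0.125 in this order.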

How the results depend on the processing

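The averages over 6 to 96 h kept their calls, 2 members in leaves and 0 in fruits, under each alternative run and with each library left out. None of these fits took the experimental units into account. In leaves at single times, where edgeR called 0 members, the DESeq2 Wald test called 2 at 6 h and 1 each at 12, 24, 48 and 96 h, one fit over all time points called 1 each at 6, 24 and 96 h (0.827%, 0.455% and 0.656% of all genes), the replicate block called 1 at 6 h (BRI1, adjusted P-value 0.0441, 1.1% of all genes, against 0.365% without it), and library totals alone called 1 at 96 h (DWARF, 0.0340, 0.274% of all genes). The 1 member whose response changed in leaves from 0 to 6 h, and the 1 whose response differed between fruits and leaves at 6 h, both BRI1, became 0 with no filter, with the replicate block (adjusted P-values 0.0662 and 0.0795) and with library totals alone. The 1 at 96 h, DWARF, became 0 with the size factors of DESeq2 (0.0508) and with the replicate block (0.125). With the block within treatments the differences of light response between organs at 6 and 96 h gave 0 members too, and BRI1 in fruits against leaves under No FR passed at 0 h (0.0459) and not at 24 h (0.0569). For fruits against leaves under No FR, library totals alone turned BRI1 to 0.51 at 0 h, 0.44 at 24 h and 0.17 at 48 h. Over all times, library totals alone gave 4 members in leaves under No FR in place of 2 (54.7% of all genes in place of 39.1%), and no filter gave 1 in fruits under No FR in place of 2 (23.1% in place of 33.9%). The replicate block also called BRI1 in the joint test in fruits under No FR (0.0442) and changed no other call. The correlations of same-numbered libraries of the treatments were −0.61 to 0.55, and in 0 of 12 comparisons were all pairs above 0.1. Those of fruits and leaves of 1 number were −0.15 to 0.18, again with all pairs above 0.1 in 0 of 12, and in 3 of 12 every library was most like its own number. With 1 library left out, members called ranged from 0 to 1 for leaves at 96 h, for the change in leaves from 0 to 6 h and for fruits against leaves in light response at 6, 12 and 96 h. They ranged from 5 to 6 for fruits against leaves under No FR at 6, 24 and 48 h, from 1 to 2 over all times in leaves under No FR, from 1 to 4 in fruits under No FR and from 2 to 4 in fruits under Leaf FR. Leaf FR leaves at 96 h gained DWARF without their replicate 2 (adjusted P-value 0.0309). The cause was not tested in any of these. The BCV between replicates, 32.6% to 39.9% in leaf and 12.5% to 15.8% in fruit comparisons, limits what 4 against 4 libraries can show.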
